A study of Mus musculus with 10 samples.

Results

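Nr2f1 and Nr2f2 encode COUP-TFI and COUP-TFII, a pair of closely related orphan nuclear receptors, and the peaks around both genes were described in 6 lists of Polycomb (PcG) ChIP-seq peaks. The annotation of mm9 holds 22350 protein-coding genes on the chromosomes with peaks, and these 2 were chosen from earlier results of the same peak lists, so that their coverage and their loss of peaks are a description and not a test. For each gene, the peaks that touched the gene body or the 50 kb on either side (its window) were taken from every list. PcG binding was mapped in J1 ESCs, a mouse embryonic stem cell line grown with LIF on mitomycin-C inactivated fibroblast feeders that were depleted before harvest, and in NSCs differentiated from J1 ESCs in culture and kept on gelatin with EGF and FGF. ESCs were profiled for Ring1b, Cbx2, Ezh2 and H3K27me3, and NSCs for Ring1b and H3K27me3, each in 1 library cross-linked in 1% formaldehyde for 10 min. The 4 input libraries, among them separate ones for Ring1b in each cell type, were not analysed here. The paper adds EGS cross-linking before formaldehyde for Ring1b. Ring1b and the other lists thus differ in preparation as well as in target, and these cannot be told apart. A list holds starts and ends of peaks only, with no height, so depth is unknown, and a missing peak means that no stretch passed the authors' threshold.

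PcG proteins keep developmental genes silent. In PRC2, Ezh2 methylates histone H3 at lysine 27, and Cbx proteins such as Cbx2 bind this mark and belong to PRC1, whose Ring1b subunit ubiquitylates histone H2A and compacts chromatin. PcG proteins in mouse ESCs gather over CpG-rich DNA at the genes of transcription factors that later lineages use. COUP-TFI and COUP-TFII are among these factors. Both bind DNA at direct repeats of the nuclear receptor hexamer AGGTCA. COUP-TFI sets up area identity in the developing cortex and acts in neural progenitors, and COUP-TFII is known for venous and lymphatic endothelium, for the mesenchyme of many organs and for interneurons of the caudal ganglionic eminence.

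Nr2f1 (ENSMUSG00000069171.7) lay on the minus strand of chromosome 13 at chr13:78328234-78339018, and its window spanned 110.8 kb. The annotation gave it 5 transcripts in 6 exon blocks. Nr2f2 (ENSMUSG00000030551.7) lay on the minus strand of chromosome 7 at chr7:77496832-77511621, with 2 transcripts, 4 exon blocks and a window of 114.8 kb. Both genes stood in gene-poor DNA. The nearest protein-coding genes of Nr2f1 were Fam172a, which ended 22.7 kb beyond its 3′ end, and Arrdc3, 2.68 Mb away on the other side. Those of Nr2f2 were the predicted gene B130024G19Rik, 19.8 kb upstream, and Arrdc4, 1.60 Mb beyond the 3′ end. The long noncoding RNA genes A830082K12Rik and Gm8327 ran in the opposite direction from within Nr2f1, with start sites 1740 and 19 bases inside the start site of Nr2f1.

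The 250 bases before the outermost start site of each gene are shown because these starts differed in the lists that held them. They are read from mm9 on the minus strand, 5′ to 3′, with every CpG in capitals.
Nr2f1-001, chr13:78339019-78339268: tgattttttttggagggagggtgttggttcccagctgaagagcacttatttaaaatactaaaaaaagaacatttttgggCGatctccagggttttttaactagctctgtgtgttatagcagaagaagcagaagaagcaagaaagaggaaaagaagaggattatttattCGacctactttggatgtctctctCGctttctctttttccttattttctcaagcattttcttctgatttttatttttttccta
Nr2f2-002, chr7:77511622-77511871: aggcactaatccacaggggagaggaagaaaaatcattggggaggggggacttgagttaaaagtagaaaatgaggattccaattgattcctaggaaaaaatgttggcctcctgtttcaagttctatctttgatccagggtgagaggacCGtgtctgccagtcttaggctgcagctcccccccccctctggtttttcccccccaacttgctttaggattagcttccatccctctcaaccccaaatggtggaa
These stretches held 3 and 1 CpGs. Counted from 250 bases before to 50 bases after the start, the promoters held 8 and 2 CpGs, against a median of 11 over all 22350 protein-coding promoters, of which 12.2% held fewer than the promoter of Nr2f2-002. The letters CGCG were found in 46.7% of all promoters and in neither of these. The hexamer AGGTCA, searched on both strands, was found in 14.4% of all promoters and also in neither. Promoters of the other annotated starts held from 4 CpGs (Nr2f1-002) to 18 (Nr2f1-004), and that of the inner start Nr2f2-001 held 10.

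Bases under all 4 ESC lists held 64.5 CpGs per kb at Nr2f1 and 47.5 at Nr2f2, against 12.9 and 16.2 over the whole windows. For each gene, the 300 bases with the most CpGs among those under Ring1b, Cbx2, Ezh2 and H3K27me3 together, and outside untranslated exons, are shown on the minus strand. The third stretch, 86.0 kb to 86.3 kb downstream of the start site of Nr2f2 and outside its window, is from the only bases within 100 kb of either gene that lay under all 6 lists, the NSC lists included.
Nr2f1, second exon, chr13:78334535-78334834: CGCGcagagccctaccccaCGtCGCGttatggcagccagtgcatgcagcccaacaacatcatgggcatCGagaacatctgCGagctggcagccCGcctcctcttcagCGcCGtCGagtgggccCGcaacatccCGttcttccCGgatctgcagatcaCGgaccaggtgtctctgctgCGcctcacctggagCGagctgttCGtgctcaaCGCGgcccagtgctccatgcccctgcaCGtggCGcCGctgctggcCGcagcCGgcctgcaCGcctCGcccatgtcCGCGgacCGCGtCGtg
Nr2f2, first exon of Nr2f2-001, chr7:77504846-77505145: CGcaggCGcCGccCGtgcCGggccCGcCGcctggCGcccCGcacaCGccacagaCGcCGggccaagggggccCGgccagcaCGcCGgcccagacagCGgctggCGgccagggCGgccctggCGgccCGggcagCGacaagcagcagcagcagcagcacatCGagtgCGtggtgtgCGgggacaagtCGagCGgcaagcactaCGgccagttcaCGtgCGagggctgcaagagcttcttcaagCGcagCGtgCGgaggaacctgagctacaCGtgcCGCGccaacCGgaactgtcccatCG
Nr2f2, distal, chr7:77425285-77425584: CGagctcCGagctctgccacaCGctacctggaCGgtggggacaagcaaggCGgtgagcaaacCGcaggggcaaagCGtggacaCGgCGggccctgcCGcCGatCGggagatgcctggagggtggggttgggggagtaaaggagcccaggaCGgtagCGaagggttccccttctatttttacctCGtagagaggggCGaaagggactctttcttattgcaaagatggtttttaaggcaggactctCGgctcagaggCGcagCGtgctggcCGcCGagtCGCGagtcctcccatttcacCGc
They held 32, 37 and 24 CpGs, with observed-to-expected CpG ratios of 0.954, 0.917 and 0.852. The first 2 are coding sequence, and the third lay in no annotated gene. All were picked for their CpGs, so their high values follow from the choice. The whole stretches under all 4 ESC lists inside the windows had ratios from 0.350 to 0.754.

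In ESCs, Nr2f2 was the more widely covered of the pair for Ring1b, Cbx2 and H3K27me3, while Ezh2 coverage differed little. Ring1b peaks covered 40.8 kb of the Nr2f2 window and 20.2 kb of the Nr2f1 window, a ratio of 2.02. Cbx2 peaks covered 24.4 kb and 8.8 kb (ratio 2.77), and H3K27me3 peaks covered 11.4 kb and 4.0 kb (ratio 2.85). Ezh2 peaks covered 6.6 kb at Nr2f2 and 6.0 kb at Nr2f1, a ratio of 1.1, and this order turned when peaks within 3 kb were merged, with 6600 bp at Nr2f2 and 11000 bp at Nr2f1. With 1 library per target there is no error for these values and no difference could be tested. In NSCs, neither the Ring1b list nor the H3K27me3 list held a peak in either window.

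**Figure D1:**
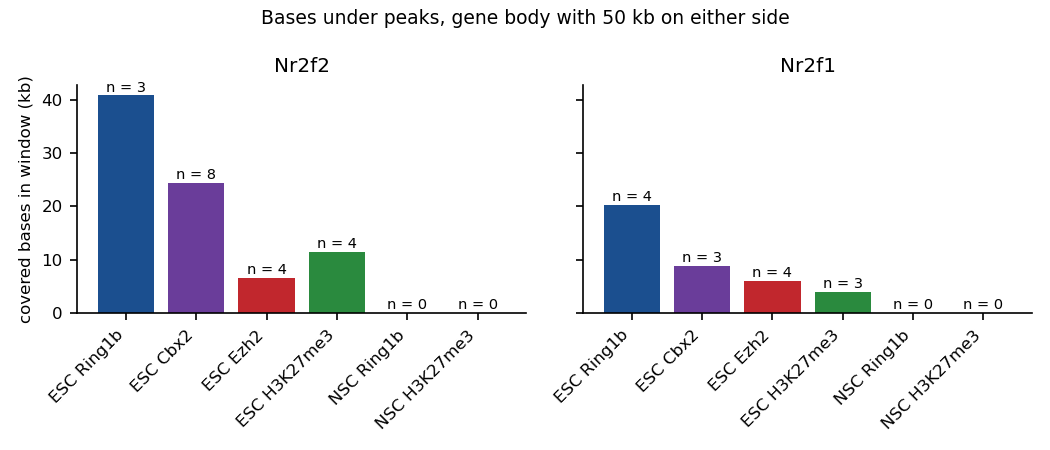
Bases under peaks (kb, vertical axis) in the window of each gene, for the 6 lists along the horizontal axis, with n the number of peaks. Bars are single libraries and carry no error, and both NSC lists stand at 0 for both genes, below 40.8 kb of Ring1b at Nr2f2 and 20.2 kb at Nr2f1 in ESCs.

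Few genes had windows this densely covered, a property that led to their choice. Among all protein-coding genes ranked by Ring1b-covered bases, Nr2f2 stood at place 44 and Nr2f1 at place 115. By Cbx2 they stood at places 45 and 177, and by Ezh2 at 224 and 247. The pair was farthest apart for H3K27me3, with Nr2f2 at place 119 and Nr2f1 at place 676. A peak in the window was found for 20.1% of genes with Ring1b, 6.06% with Cbx2, 9.27% with Ezh2 and 18.2% with H3K27me3. Where a Ring1b peak was present, the median gene had 2.3 kb covered and the 90th percentile was 7.8 kb.

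The Ring1b peaks of Nr2f2 formed a nearly continuous domain from the promoter far past the 3′ end. The widest, chr7:77488401-77516200, measured 27800 bp, began 4.6 kb upstream of the start site, ended 23.2 kb downstream of it and held the whole gene. It was the 7th widest of the 2335 ESC Ring1b peaks. Beyond the 3′ end followed chr7:77481401-77483800 (2400 bp) and chr7:77469401-77480000 (10600 bp), both intergenic, which carried the domain to 42.2 kb from the start site. No Ring1b peak lay farther upstream than the widest one, so coverage reached far in the direction of transcription and little behind it.

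Within this domain the other lists marked shorter pieces. Cbx2, the chromodomain subunit of PRC1, had 8 peaks of 1600 to 5600 bp at Nr2f2, spread from 4.0 kb upstream to 38.0 kb downstream of the start site. One of them, chr7:77484601-77487000, filled part of the gap between Ring1b peaks and was the single peak of either gene that shared no base with Ring1b. It held no CpG island, and its ratio of observed to expected CpGs, 0.169, was the lowest of the 33 ESC peaks in the windows of the pair. Ezh2 had 4 peaks of 1000 to 2400 bp, 4.0 kb to 2.8 kb upstream of the start site, over the first exon of Nr2f2-001, past the 3′ end and in the distal intergenic part. H3K27me3 had 4 peaks of 1200 to 3800 bp. The widest of them were chr7:77474201-77478000 in the distal part and chr7:77502001-77505800 over the inner start, both 3800 bp and joint 220th of 2192 in width.

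Nr2f1 carried 4 separate Ring1b peaks. The widest, chr13:78332801-78344400, measured 11600 bp and ran from 5.4 kb upstream to 6.2 kb downstream of the start site, over the first and second exons but not the third. It was joint 95th of 2335 in width. A second peak, chr13:78347801-78350800, lay upstream in an intron of A830082K12Rik, and chr13:78317601-78321600 lay in intergenic DNA past the 3′ end. The fourth, chr13:78302401-78304000, lay over exon and intron of Fam172a, 35.0 kb to 36.6 kb downstream, and shared no base with Cbx2, Ezh2 or H3K27me3. It was counted because it lay in the window, and whether it belongs to Nr2f1 was not tested.

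The shorter peaks of Nr2f1 fell on the same few places. Cbx2 peaks of 5600, 1400 and 1800 bp lay over the start of the gene, 4.0 kb to 2.6 kb upstream, and 11.2 kb to 9.4 kb upstream. Ezh2 had peaks of 1400 to 1600 bp at each of these 3 places, of which the first held 2, over the start site and over the second exon. H3K27me3 had peaks of 1600 bp over the second exon and 1400 bp upstream, and 1 of 1000 bp in the intergenic Ring1b peak past the 3′ end, where neither Cbx2 nor Ezh2 had a peak. All bases under Cbx2, Ezh2 and H3K27me3 at Nr2f1 were also under Ring1b, and at Nr2f2 this held for all Ezh2 and H3K27me3 bases and for 90.2% of Cbx2 bases.

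**Figure D2:**
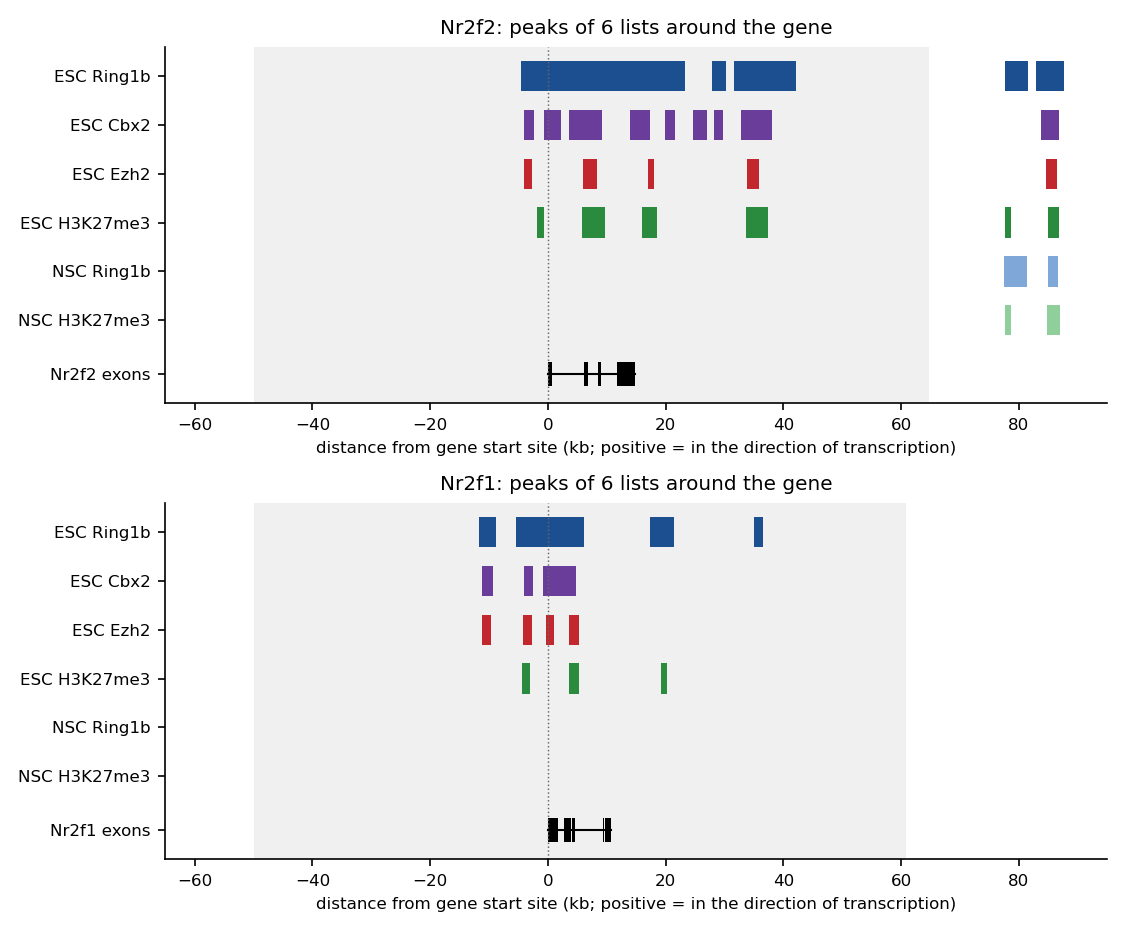
Peaks of the 6 lists (rows) around Nr2f2 and Nr2f1 by distance from the gene start site in kb, with exons in black and the window shaded. ESC peaks crowd over and past Nr2f2 and around the start of Nr2f1, both NSC rows are empty inside the windows, and at Nr2f2 NSC peaks appear from 77.4 kb to 87.0 kb downstream, outside the window.

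The start sites themselves were unevenly held. Of all protein-coding start sites, 7.03% lay in an ESC Ring1b peak, 1.15% in a Cbx2 peak, 2.56% in an Ezh2 peak, 4.31% in an H3K27me3 peak and 0.752% in peaks of all 4 ESC lists. The outermost start site of Nr2f1 lay in Ring1b, Cbx2 and Ezh2 peaks, and the nearest H3K27me3 peak was 2983 bp away. The outermost start of Nr2f2, that of Nr2f2-002, lay in Ring1b and Cbx2 peaks, with H3K27me3 580 bp and Ezh2 2780 bp away. Neither was thus in all 4 lists. The inner start of Nr2f2, that of Nr2f2-001 and 6142 bp downstream, lay in peaks of all 4.

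Over the 7 annotated transcripts of the pair, 6 starts lay in Ring1b and Cbx2 peaks, 2 in Ezh2 peaks and 1 in an H3K27me3 peak. The start of the short noncoding transcript Nr2f1-005, near the last exon, was in none. In NSCs, all 7 lay outside peaks. There 1.74% of all protein-coding start sites lay in a Ring1b peak and 1.77% in an H3K27me3 peak, so that absence from the NSC lists was the usual state of a gene. A start site in an ESC Ring1b peak and in no NSC peak was found for 5.05% of genes, which is 71.9% of the 1571 in ESC Ring1b peaks. Both genes belonged to this class.

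The stretches where all 4 ESC lists overlapped were short. At Nr2f1 they were chr13:78334201-78335400 (1200 bp), over the second exon, and chr13:78342001-78343000 (1000 bp), upstream, in A830082K12Rik. At Nr2f2 they were chr7:77503201-77505600 (2400 bp), which held the inner start, chr7:77494201-77494600 (400 bp), just past the 3′ end, and chr7:77475801-77477800 (2000 bp), in the distal intergenic part. They made up 10.9% of the 20.2 kb under any ESC list at Nr2f1 and 11.1% of the 43.2 kb at Nr2f2. Bases under a single list were the largest class at both genes, 47.5% and 42.6%.

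The lists also differed in how they split the gene bodies. The body of Nr2f2 was covered to 100% by Ring1b, 58.1% by Cbx2, 25.7% by H3K27me3 and 16.2% by Ezh2. The body of Nr2f1 was covered to 57.7% by Ring1b, 44.7% by Cbx2, 24.3% by Ezh2 and 14.8% by H3K27me3. The order of Ezh2 and H3K27me3 was thus exchanged between the genes. The third exon of Nr2f1 lay under no list, while that of Nr2f2 lay wholly under Ring1b.

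The second exon of each gene gave a matched piece, since it measured 528 bp in both and 446 bases (84.5%) were identical. It lay wholly under Ring1b, Cbx2 and H3K27me3 in both genes. Ezh2 covered all 528 bp of it in Nr2f1 and 0 bp in Nr2f2, where an Ezh2 peak began just beyond the exon. The gap was smaller than the 200 bp step of the peak calls, so the lack of any Ezh2 overlap in Nr2f2 is within their resolution. The exon, at 528 bp, is longer than that step, so a shift of 200 bp would cover only part of it. With no replicate library, whether the rest of the contrast would recur was not tested. The longest run of identical bases was 27 long, cgcctcacctggagcgagctgttcgtg, shorter than the 50-base tags. Across the whole windows, 0.0659% of the 50-base words of Nr2f1 and 0.119% of those of Nr2f2 also occurred in the window of the other gene on either strand, so exact 50-base tags that the pair shares were few.

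The more ESC lists lay over a base, the higher was the CpG content. At Nr2f1 it was 7.04 CpGs per kb under no list, 28.8 under 1, 33.7 under 2, 58.4 under 3 and 64.5 under all 4. At Nr2f2 the values were 9.44, 13.9, 35.1, 35.7 and 47.5. The order was the same in both genes, and neighbouring bases are not independent, so no test was made.

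CpG islands, taken as stretches of at least 200 bp with at least 50% GC and a CpG ratio of at least 0.6, numbered 18 in the Nr2f2 window and 7 in the Nr2f1 window. Ring1b peaks touched 16 and 6 of them, against 5.45% of the 73679 islands of the genome. Cbx2 touched 13 and 4 (1.59% over the genome), Ezh2 7 and 4 (2.4%), and H3K27me3 9 and 2 (3.8%). The longest island of Nr2f1, chr13:78337031-78339056, spanned 2026 bp over the first exon and was under Ring1b, Cbx2 and Ezh2 but not H3K27me3. The longest of Nr2f2, chr7:77505698-77507317, spanned 1620 bp just before the inner start, had a CpG ratio of 0.982 and was not under Ezh2. Islands untouched in ESCs were 2 at Nr2f2 and 1 at Nr2f1, all far from the exons.

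**Figure D3:**
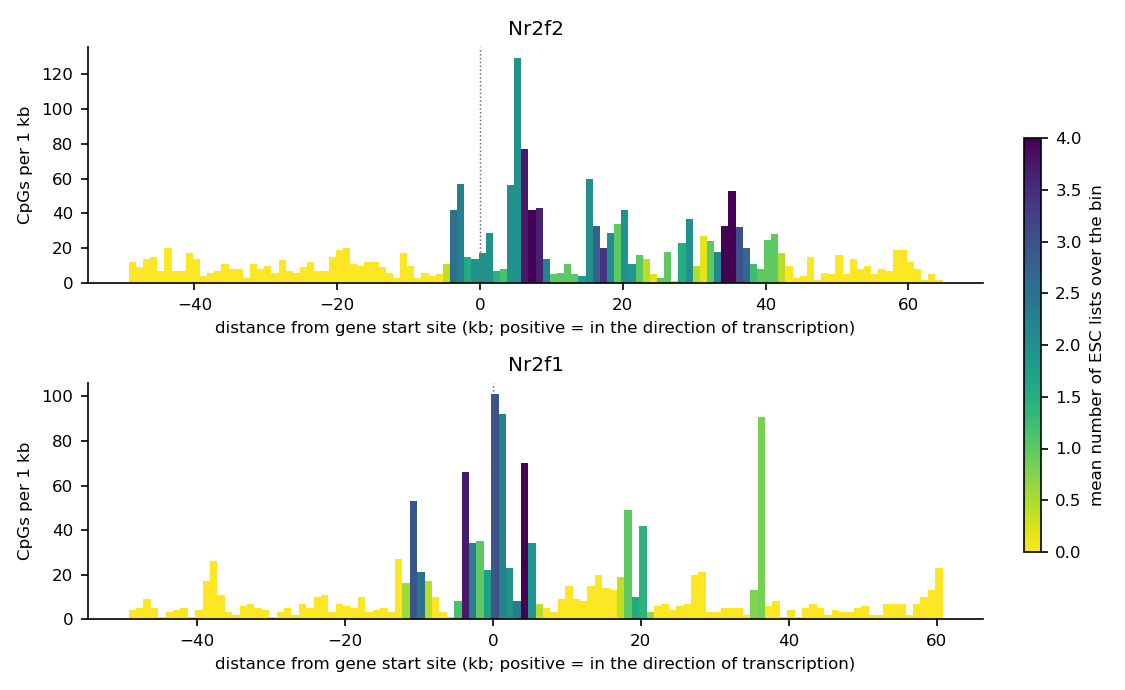
CpGs per 1 kb (vertical axis) by distance from the gene start site in kb across each window, coloured by the mean number of ESC lists over the bin, with no error since the values are counts in the mm9 sequence. The CpG-richest bins, with 129 CpGs at Nr2f2 and 101 at Nr2f1, are under 2 and 3 lists, and DNA under no list is mostly CpG-poor.

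Not all peaks of the pair were CpG-rich for their list. The main Ring1b peaks had GC contents of 48.9% at Nr2f2 and 51.7% at Nr2f1, and 4.58% and 12.2% of the list lay lower. The median ESC Ring1b peak had 58.3%. By CpG ratio the Nr2f2 peak (0.504) stood above 13.4% of the list and the Nr2f1 peak (0.641) above 49.5%. A wide peak takes in flanking DNA, so that width and composition cannot be told apart here.

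In NSCs none of the 33 ESC peaks of the pair had a counterpart. Of the 7 ESC Ring1b peaks, 7 overlapped no NSC Ring1b peak, and the same was true of the 7 H3K27me3 peaks against NSC H3K27me3. In the whole lists, 80.4% of ESC Ring1b peaks (exact 95% Clopper-Pearson interval 78.8% to 82%) and 71.9% of ESC H3K27me3 peaks (69.9% to 73.7%) also had no counterpart, so the loss was not particular to this pair. Cbx2 and Ezh2 were not profiled in NSCs, and of their 19 ESC peaks 0 overlapped an NSC peak of Ring1b or H3K27me3. In the whole lists, with each NSC list taken singly, 74.3% of Cbx2 and 72.3% of Ezh2 peaks had no NSC Ring1b peak. For NSC H3K27me3 the shares were 69.9% and 58.7%. The share with a peak of neither NSC list was not computed. A window with ESC Ring1b and H3K27me3 peaks and no NSC peak was found for 7.14% of genes, which is 52.1% of the 3066 windows that had both ESC peaks.

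Most of the widest ESC Ring1b peaks kept an NSC peak, and those of this pair did not. Of the 99 ESC Ring1b peaks at least as wide as the main peak of Nr2f1 (11600 bp), 22 (22.2%) had no NSC peak of either target, the 2 main peaks of this pair included. Of the 7 at least as wide as that of Nr2f2 (27800 bp), 1 had none, which was that of Nr2f2 itself. These limits were set by the members' own widths. The NSC lists were shorter and their peaks narrower: 1389 against 2335 peaks for Ring1b (median width 1400 against 2200 bp) and 1647 against 2192 for H3K27me3 (1600 against 1800 bp). Whether a difference in depth, antibody yield or calling settings between the libraries had a part in the missing peaks was not tested.

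At Nr2f2 the loss stopped short of a pair of distal sites. Both lay past the 3′ end, outside the window, in DNA with no annotated gene. At the nearer one, 62.6 kb from the gene, the NSC Ring1b peak chr7:77430201-77434200 (4000 bp) shared 3800 bp with an ESC Ring1b peak that was also 4000 bp wide, and the H3K27me3 peak chr7:77433001-77434000 was the same interval in ESCs and NSCs. Neither Cbx2 nor Ezh2 had an ESC peak there.
The farther site held peaks of all 6 lists, and its sequence is the distal one printed above. Ring1b measured 4600 bp in ESCs and 1600 bp in NSCs, while H3K27me3 measured 1800 bp and 2200 bp. Cbx2 (3000 bp) and Ezh2 (1800 bp) peaks lay there in ESCs. The 1400 bp under all 6 lists, chr7:77425201-77426600, held 60.7 CpGs per kb and 1 CpG island, a density near that of the all-list stretch over the inner start of Nr2f2 (55.4 per kb), which had no NSC peak. Past it lay an NSC Ring1b peak with no ESC counterpart, chr7:77313601-77320600 (7000 bp), 176.2 kb from the gene. Whether these sites belong to Nr2f2 was not tested.

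Around Nr2f1 no such site was found. The nearest NSC Ring1b peak lay 485.8 kb from the gene and measured 1000 bp, and the nearest NSC H3K27me3 peak lay 4070.2 kb away.

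Among nuclear receptor genes, Nr2f2 had the most Ring1b-covered bases in ESCs, followed by Nr2e1 and Nr2f1. The family list of 49 genes, all found in the annotation, was written with earlier results known. Of these, 14 (28.6%) had the outermost start site in an ESC Ring1b peak, against 7.03% of all genes. There were 4 in a Cbx2 peak (1.15% of all genes), 6 in an Ezh2 peak (2.56%) and 7 in an H3K27me3 peak (4.31%). These counts include Nr2f1 and Nr2f2, which were chosen from the same lists, so they are a description only. Both are among the starts in Ring1b and Cbx2 peaks, and Nr2f1 is among those in Ezh2 peaks. The median Ring1b-covered length over the family was 1.0 kb. In NSCs, 2 start sites lay in Ring1b peaks (1.74% of all genes) and 2 in H3K27me3 peaks (1.77%). Of the 14 starts in ESC Ring1b peaks, 11 lay in no NSC peak, where 71.9% of such starts over all genes did. That state was thus not particular to the COUP-TF genes.

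Other nuclear receptor genes, most of them named for a start site in peaks and not for relatedness, behaved in different ways. Nr2f6, the third member of the COUP-TF group, had no peak of any list in its window. Nr2e1, the Tlx gene needed for neural stem cell renewal, had 25.2 kb under Ring1b, 13.4 kb under Cbx2, 10.0 kb under Ezh2 and 16.8 kb under H3K27me3 in ESCs, with its start site in all 4 lists. In contrast to the COUP-TF genes it also had 13.0 kb of Ring1b and 16.2 kb of H3K27me3 in NSCs. Nr4a3, an orphan receptor induced as an immediate early gene, was the other family member with its start site in all 4 ESC lists, with 9.6 kb under Ring1b and 0.0 kb in NSCs. The mineralocorticoid receptor gene Nr3c2 and the progesterone receptor gene Pgr each had the start site in 1 NSC list, with 3.0 kb of NSC Ring1b at Nr3c2 and 2.6 kb of NSC H3K27me3 at Pgr.

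**Figure D4:**
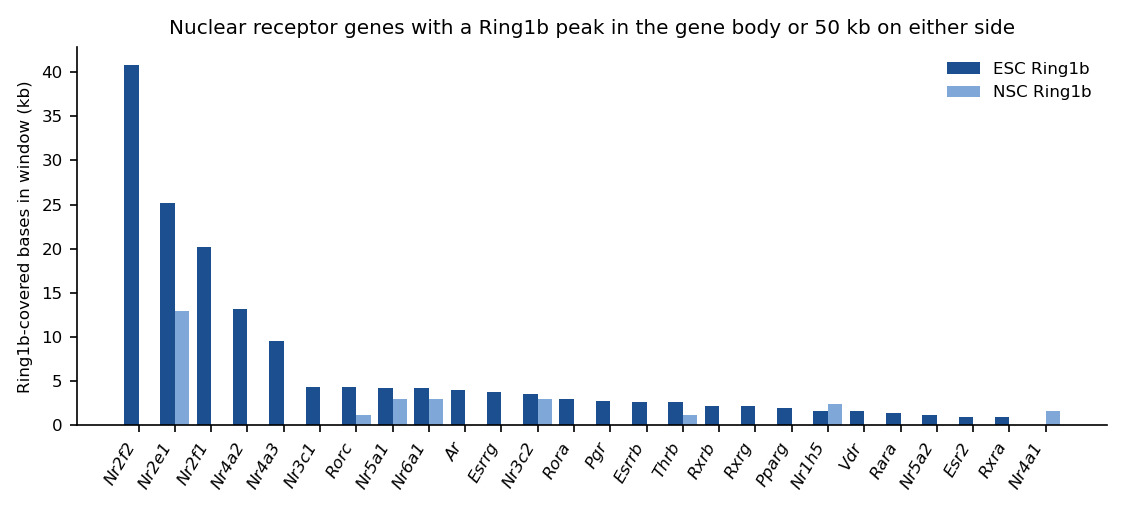
Ring1b-covered bases (kb, vertical axis) in ESCs and NSCs for the nuclear receptor genes (horizontal axis) that have a Ring1b peak in the gene body or within 50 kb, each bar from 1 library with no error. Nr2f2 (40.8 kb) and Nr2f1 (20.2 kb) have no NSC bar, as is true of most genes shown. Nr2e1 has 13.0 kb in NSCs, and Nr5a1 and Nr6a1 are neighbours that share the same peaks.

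Genes for partners of the COUP-TFs carried Ring1b over fewer bases than Nr2f1. Among the co-regulators examined, the start sites of Zfpm2 (Fog2), Bcl11a (Ctip1) and Bcl11b (Ctip2) lay in ESC Ring1b peaks, with 2.6, 10.0 and 10.8 kb covered, and that of Bcl11a also lay in Cbx2 and Ezh2 peaks. Zfpm1 had 5.0 kb of Ring1b away from its start site, and the corepressor gene Ncor1 had no peak. Over all genes, 7.03% of start sites lay in an ESC Ring1b peak. The start sites of these 5 genes lay in no NSC peak, though 3.2 kb of NSC Ring1b lay in the window of Bcl11a. That absence is the usual state, since 1.74% of all start sites lay in NSC Ring1b peaks and 1.77% in NSC H3K27me3 peaks.

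Of 5 genes that act with COUP-TFI in cortical area patterning, all had the start site in ESC Ring1b and H3K27me3 peaks, where 7.03% and 4.31% of all genes had it. Ring1b covered 27.4 kb at Pax6, 20.8 kb at Lhx2, 16.6 kb at Sp8, 13.0 kb at Emx2 and 3.0 kb at Fgf8. Emx2 and Fgf8 had the start site in all 4 ESC lists. In NSCs, the start site of Sp8 lay in Ring1b and H3K27me3 peaks, with 17.0 kb of Ring1b against 16.6 kb in ESCs and 16.6 kb of H3K27me3 against 4.2 kb, and the outermost start sites of the other 4 lay in none. Emx2 and Pax6, like the COUP-TF genes, had no NSC peak in their windows, while Lhx2 had 1.2 kb of Ring1b and Fgf8 1.8 kb of H3K27me3.

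The genes whose coverage over the 6 lists was most like that of Nr2f1, by the sum of absolute differences within 50 kb of the start site, were Pax9, Hlx, Bcor, H2afb1 and Irx2, at 9.4 to 11.8 kb. A gene without peaks stood at 39.0 kb. Pax9, for example, had 15.4 kb of Ring1b, 8.6 kb of Cbx2, 8.8 kb of Ezh2 and 5.6 kb of H3K27me3. For Nr2f2 they included Nfix, Pou3f2, Meis2 and BC061194, at 32.2 to 36.8 kb, against 83.2 kb for a gene without peaks. Of the genes named, Irx2 had 1.0 kb of NSC Ring1b and BC061194 had 16.2 kb, and the others had none.

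No expression was measured with these libraries, so the labelled cell types could be set only against peaks. The outermost start sites of 7 pluripotency genes lay in no ESC peak and in no NSC peak, which is the state of most genes. Other starts of Esrrb lay in ESC Ring1b, Ezh2 and H3K27me3 peaks and in an NSC H3K27me3 peak. For Sall4, other starts lay in NSC Ring1b and H3K27me3 peaks and in no ESC peak. Windows of 5 of the 7 genes held an NSC peak. Of all genes, 9.17% had an NSC Ring1b peak and 9.68% an NSC H3K27me3 peak in the window. Of 6 NSC marker genes found in the annotation, Nes and Olig2 had the start site in ESC Ring1b peaks and in no NSC peak, whereas that of Sox2 lay in an NSC H3K27me3 peak. Slc1a3, Fabp7 and Vim had no peak of any list in their windows. Of 5 fibroblast genes, looked at because ESCs were grown on feeders, only Twist2 had its start site in a peak, of ESC Ring1b and H3K27me3. Of all start sites, 7.03% lay in ESC Ring1b, 4.31% in ESC H3K27me3 and 1.77% in NSC H3K27me3 peaks.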

How the data were processed

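The authors deposited 6 lists of peaks as starts and ends in mm9, 1 library each. Per the paper's methods, 50 bp paired-end tags were mapped with Bowtie, whereas the submitters' processing notes name BWA. Windows of 1 kb every 200 bp were compared with input by a negative binomial distribution, and enriched windows near each other were merged. Its size parameters were chosen by the authors from looking at the resulting calls. Whether they were equal for all lists is not stated. For Ring1b the paper adds an EGS cross-linking step that the labels do not mention. Chromatin fragments averaged 250 bp by the labels.

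Genes came from the GENCODE annotation of mm9 and sequence from NCBIM37. Overlaps of at least 1 bp, covered bases, CpG islands and motifs were computed with numpy 2.4.6 and scipy 1.17.1 under Python 3.11.15, and matplotlib 3.10.9 drew the figures. The functions for covered bases and for positions inside peaks were tested on simulated peaks, and those for CpG islands and motifs were not. Libraries had no replicates, so no test was made. Clopper-Pearson intervals at the 95% level cover counting error over peaks only. The members, gene lists and alternatives were chosen with earlier results of these data known. Genes named are the members, every gene in their windows with the nearest neighbours, the co-regulator and cortical patterning lists, nuclear receptors with a start site in all 4 ESC lists or any NSC list, the third COUP-TF gene, genes among the 5 most alike to each member, and markers. Some genes and a sequence are not reported here. Nr2f6, Nr5a1 and Nr6a1 were named after their values were seen. Alternatives were flanks of 25 kb and 100 kb, merging of peaks within 3 kb, leaving out peaks under 2 kb, other overlap and start-site rules, windows of equal width and autosomes alone.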

Additional observations from a re-analysis of the deposited data

How the results depend on the processing

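Of 148 values under alternatives, 129 stayed within 1.5 times the values reported. A value of 0 that stayed 0, as most NSC values did, is counted among them. With no NSC peak in either window, other overlap rules could not change the number of absent peaks. With peaks at least 2 kb wide only, Nr2f1 kept 5600 bp of Cbx2 in 1 peak and fell to 0 bp and 0 peaks for Ezh2 and H3K27me3, so that 0 H3K27me3 peaks were left to be absent in NSCs, while Nr2f2 kept 5 Cbx2 and 2 Ezh2 peaks. With peaks within 3 kb merged, Ezh2 covered 11000 bp of Nr2f1 in 2 peaks, above the 6600 bp at Nr2f2, and Cbx2 covered 37200 bp of Nr2f2 in 2 peaks. Merging counts the gaps as covered. With flanks of 100 kb, Nr2f2 had 5 ESC Ring1b peaks, and NSC peaks covered 5600 bp with Ring1b and 3200 bp with H3K27me3, 2 peaks each, so that its window was then not free of NSC peaks. Taking the start of any transcript put Nr2f2 in 4 ESC lists in place of 2. No paired analysis was possible because each cell type and target had 1 library, and no library could be left out for the same reason. Depth is unknown, and an enriched stretch below the calling threshold is not visible in the lists.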
